A study of Mus musculus with 6 samples.

Results

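The genes of the class I antigen presentation pathway were followed in neuro2a (N2a) cells after knockdown of NF-Y. The 10 genes were H2-K1, H2-D1, B2m, Tap1, Tap2, Tapbp, Psmb8, Psmb9, Psmb10 and Nlrc5, out of 20145 genes with a probe on the array. They were chosen by name, and a probe was assigned to a gene when the transcript accession given for it belonged to that gene in RefSeq. This gave 12 probes. All 12 passed the filter on low signal and were well above background on all 6 arrays, and no spot was saturated.

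N2a is a neuroblastoma line derived from a strain A mouse. The 3 control arrays, labelled Vector KD, carried RNA of cells transfected with a control vector, and the labels do not say whether it held a non-targeting hairpin. The 3 knockdown arrays, labelled NFYA and NFYC KD, carried RNA of cells transfected with miR RNAi constructs for both of these NF-Y subunits. The labels name no other genetic change or agent in either group. Hairpins against NF-Y were present in the knockdown group alone, with a single construct for each subunit, so an effect of the hairpins themselves and an effect of less NF-Y cannot be told apart. The labels do not say whether the 3 arrays of a group came from separate cultures, and p-values therefore measure the spread between these arrays, which may be technical.

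Class I molecules present peptides from inside the cell to CD8 T cells. The proteasome cuts proteins into peptides, the TAP transporter carries them into the endoplasmic reticulum (ER), and tapasin and other chaperones load them onto a heavy chain paired with beta 2-microglobulin. Under interferon, immunoproteasome subunits replace their constitutive counterparts. Promoters of class I genes carry an SXY module in which the RFX complex binds the X1 box, CREB/ATF factors bind the X2 box with a TGACG core, and NF-Y binds the Y box, an inverted CCAAT motif. The transactivator NLRC5 has no DNA site of its own in this module and is recruited by these factors. Neuronal and neuroblastoma cells are known for low class I display.

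Promoter sequences are shown first, since NF-Y is known to bind CCAAT. Whether the matches in them bear on the changes below was not tested. RefSeq windows of build GRCm38.p6 were found for 8 of the 10 genes, and Tap2 and Nlrc5 have none. Each run below is the 250 bases upstream of the annotated start, 5′ to 3′ on the gene's own strand, with CCAAT or its reverse complement ATTGG in capitals. The first 3 belong to the heavy chain genes and the light chain gene, the fourth lies between Psmb9 and Tap1, and Psmb8 is shown as the called gene with no match.
H2-K1, chr17:34000334-34000583, minus strand: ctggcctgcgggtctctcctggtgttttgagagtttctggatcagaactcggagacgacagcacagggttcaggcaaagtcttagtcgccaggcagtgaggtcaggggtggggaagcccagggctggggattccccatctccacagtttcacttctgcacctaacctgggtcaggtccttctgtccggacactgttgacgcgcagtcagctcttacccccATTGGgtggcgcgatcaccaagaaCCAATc
H2-D1, chr17:35262844-35263093, plus strand: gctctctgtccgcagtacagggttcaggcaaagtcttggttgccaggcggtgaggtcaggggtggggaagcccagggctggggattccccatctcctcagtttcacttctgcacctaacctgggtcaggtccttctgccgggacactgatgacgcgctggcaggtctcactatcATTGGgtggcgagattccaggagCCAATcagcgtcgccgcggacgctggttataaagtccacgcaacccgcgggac
B2m, chr2:122147437-122147686, plus strand: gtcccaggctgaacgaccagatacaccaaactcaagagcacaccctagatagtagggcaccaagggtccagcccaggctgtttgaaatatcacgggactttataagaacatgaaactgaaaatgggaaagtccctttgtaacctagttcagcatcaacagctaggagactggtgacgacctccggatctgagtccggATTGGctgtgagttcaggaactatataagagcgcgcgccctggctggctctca
Psmb9, chr17:34187331-34187580, minus strand: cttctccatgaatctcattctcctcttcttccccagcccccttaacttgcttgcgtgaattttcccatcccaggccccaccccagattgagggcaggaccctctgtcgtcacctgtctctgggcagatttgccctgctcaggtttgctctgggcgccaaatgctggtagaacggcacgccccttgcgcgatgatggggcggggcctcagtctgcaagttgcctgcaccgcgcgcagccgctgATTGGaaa
Psmb8, chr17:34197945-34198194, plus strand: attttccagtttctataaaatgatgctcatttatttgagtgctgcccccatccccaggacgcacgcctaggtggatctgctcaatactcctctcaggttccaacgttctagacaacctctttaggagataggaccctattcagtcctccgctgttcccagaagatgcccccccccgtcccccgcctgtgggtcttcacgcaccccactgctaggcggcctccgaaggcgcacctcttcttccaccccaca

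CCAAT, searched on both strands, was found in 6 of the 8 windows, those of H2-K1, H2-D1, B2m, Tap1, Tapbp and Psmb9. It was found in 33.8% of 32851 RefSeq promoter windows of this length. TGACG or CGTCA was found in 5 of the 8 windows against 17.8% of all windows. GAAA followed after any 2 bases by another GAAA, searched on both strands as a pattern of interferon response elements, was found in the B2m window alone, against 2.98% of all windows. Sequences that differ from this pattern by a base were not searched for. A window without a match may therefore still hold an interferon response element. A match is a run of letters and not a measured binding site, and the reference sequence is that of another mouse strain than N2a.

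The letters of the X2 core and the Y box of the SXY module lie in one arrangement in the windows of H2-K1, H2-D1 and B2m. The other boxes of the module were not searched for. In each, TGACG is followed after 20 bases by ATTGG, with ATTGG starting at -30 in H2-K1, -76 in H2-D1 and -53 in B2m relative to the annotated start. Among all windows, this spaced pair was found in 30 of 32851, or 0.0913%, which belong to 26 genes. It was looked for after these windows had been read, so its presence in them is a description. H2-M3, a class I-like heavy chain gene, was also among the 26 genes. RefSeq has 2 windows for H2-K1, and the one shown is that of the start further downstream. In the other window ATTGG starts at -16 and no further CCAAT was found. The shown H2-K1 window and that of H2-D1 carry a further CCAAT in the opposite orientation, whose first base lies 24 bases from that of the ATTGG run in H2-K1 and 23 bases in H2-D1.

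Psmb9 and Tap1 are transcribed away from each other from starts 226 bases apart. The ATTGG at -8 of Psmb9 is the same stretch of DNA as the CCAAT at -222 of Tap1. The CGTCA at -144 of Psmb9 is likewise the same stretch as the TGACG at -86 of Tap1. Each of these stretches was counted for both genes in the counts of windows above. Neither Psmb8 nor Psmb10, another immunoproteasome subunit gene, has CCAAT in its window.

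The targeted genes were lower on all 3 knockdown arrays, as a check of the labels. Nfyc fell by 1.81 on the log2 scale (limma SE 0.045, adjusted p = 0.000326) and Nfya fell by 0.76 (SE 0.055, adjusted p = 0.00130). Nfyb, the subunit that was not targeted, rose by 0.83 (SE 0.060, adjusted p = 0.00132). Levels are on the log2 scale, each array's own 75th percentile of processed signal being 0. That percentile lay between 718.1 and 754.3 intensity units, and 61.9% to 66.2% of spots were well above background. Changes are knockdown minus control. Calling a gene took a fold above 1.5 and an adjusted p (limma, Benjamini-Hochberg over the 42208 tested probes) below 0.05. A probe's level cannot be set against another probe's.

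The 10 genes split. H2-K1, a classical heavy chain gene, was called lower, the immunoproteasome subunit genes Psmb8 and Psmb9 were called higher, and the other 7 were not called. The calls covered 4.99% of all 16514 tested genes in the lower direction and 3.91% in the higher direction. At an adjusted p below 0.05 and any fold, H2-K1 was lower and 5 genes, Psmb9, Psmb8, Tap2, Nlrc5 and Tap1, were higher, where 15.7% of all genes were lower and 15.7% were higher. All 3 knockdown arrays lay below all 3 control arrays for 3 of the genes and above them for 6, where the shares of all genes were 27% and 27.7%. The median change of the 10 genes was 0.19 on the log2 scale, and that of all genes was 0.0054. Since these are bulk RNA samples, fewer cells that express a gene and less of its RNA per cell cannot be told apart.

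**Figure D1:**
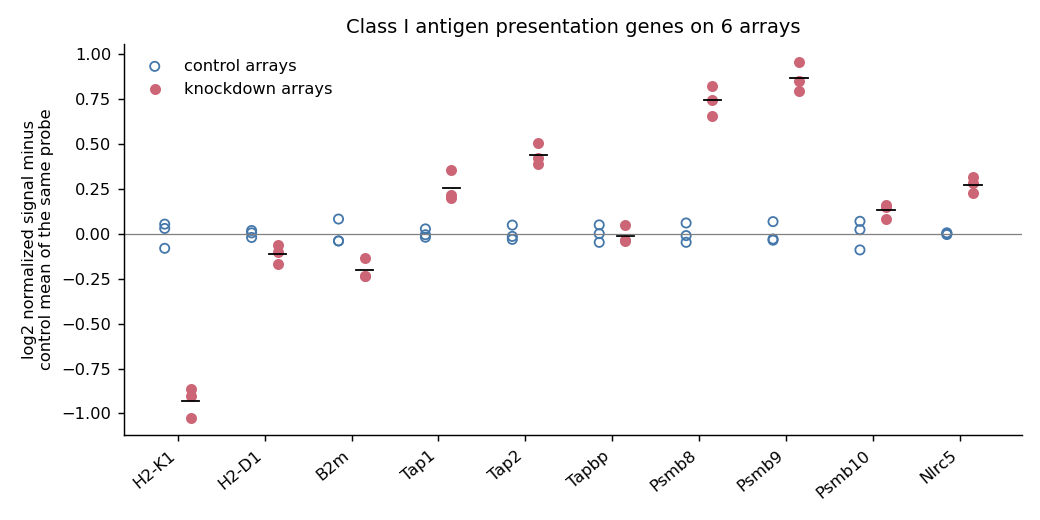
Log2 normalized signal of each of the 10 genes on each array, minus the mean of the 3 control arrays for the same probe (vertical axis). Open circles are the 3 control arrays, filled circles the 3 knockdown arrays and black lines the knockdown means, from -0.93 for H2-K1 to 0.87 for Psmb9.

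The heavy chains bind the peptide and are the part that T cells recognise. H2-K1 (probe A_51_P198434) read 5.88, 5.77 and 5.91 on control arrays 1 to 3. It read 4.99, 4.83 and 4.95 on knockdown arrays 1 to 3. Every knockdown array was below every control array by a gap larger than the range within either group, and the processed signal went from between 40519 and 45246 intensity units to between 20524 and 23860. The change was -0.93 (SE 0.066, adjusted p = 0.00128), which is 1.91-fold lower.

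The H2-K1 probe was printed 10 times on each array, which gives the spread between spots. After outlier spots were left out, 9 or 10 spots were used, and the SD of log2 signal over them was 0.040 to 0.074 within an array. A different H2-K1 probe (A_55_P2049647) read 4.90, 4.86 and 4.85 on control arrays and 4.40, 4.26 and 4.38 on knockdown arrays. It changed by -0.53 (SE 0.055, adjusted p = 0.00332), which is 1.44-fold lower and short of the fold limit. The probes gave the same direction and differed in size.

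H2-D1, the other classical heavy chain gene with a probe, moved little. It read 5.04, 5.01 and 5.05 on control arrays and 4.97, 4.87 and 4.93 on knockdown arrays. The groups did not overlap, but the change of -0.11 (SE 0.047, adjusted p = 0.161) did not pass the test. The difference between the changes of H2-K1 and H2-D1 was not tested. Class I heavy chain genes are near-identical in places and vary between strains, and the files hold no probe sequences, so how far each probe reads one gene of N2a cells was not examined.

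**Figure D2:**
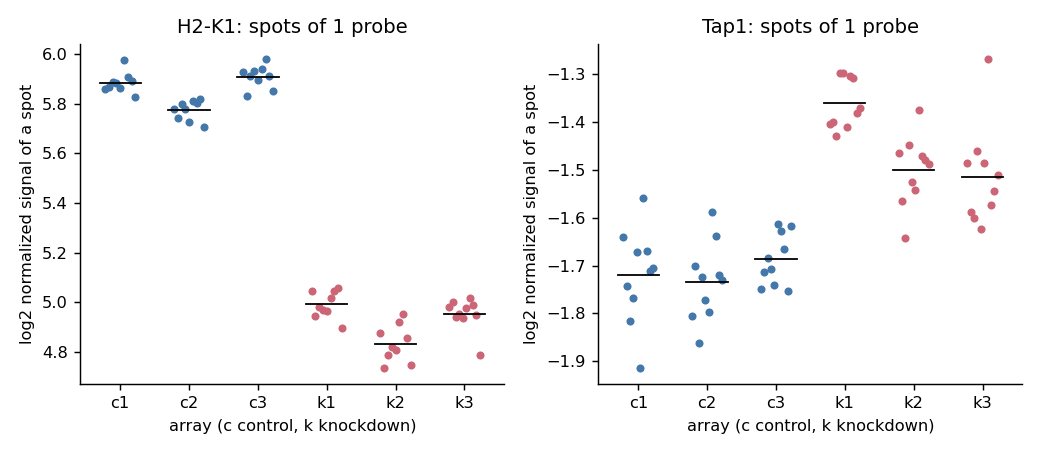
Log2 normalized signal of the spots of the H2-K1 probe (left, 9 or 10 spots per array after outlier spots were left out) and the Tap1 probe (right, 10 spots per array), on control arrays c1 to c3 and knockdown arrays k1 to k3, with black lines at the array means. H2-K1 spots lie in separate ranges in the groups, with array means of 5.77 to 5.91 and 4.83 to 4.99, and single Tap1 spots of the groups overlap.

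B2m encodes the light chain that every classical heavy chain needs to reach the cell surface. Its probe (A_51_P129012, 2 spots per array) read 5.34, 5.34 and 5.46 on control arrays. It read 5.24, 5.14 and 5.14 on knockdown arrays. All knockdown arrays were below all control arrays, and the change was -0.20 (SE 0.058), with an adjusted p of 0.0664 that misses the threshold. The adjusted p passed in 3 of 19 alternatives. It was 0.0317 when a gene's probes were averaged, 0.0422 under the filter on signal well above background and 0.00648 with a variance trend. With quantile normalization it was 0.165, and without 1 array it lay between 0.0871 and 0.180. After normexp with quantile normalization the change was -0.094 (adjusted p = 0.328).

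Tap1 and Tap2 form the peptide transporter, and both went up. Tap2 (A_55_P2017645) read 3.25, 3.19 and 3.17 on control arrays and 3.70, 3.62 and 3.59 on knockdown arrays. The groups were well apart, and the change was 0.44 (SE 0.052, adjusted p = 0.00488), a fold of 1.35. Tap1 (A_51_P100327, 10 spots per array) read -1.72, -1.73 and -1.69 on control arrays. It read -1.36, -1.50 and -1.51 on knockdown arrays, all above the controls, with knockdown array 1 the highest. Its change was 0.26 (SE 0.058, adjusted p = 0.0335), a fold of 1.19, against an SD over spots of 0.053 to 0.102 within an array. Neither gene reached the fold limit. The Tap1 adjusted p rose past the threshold when any 1 of the 6 arrays was left out, to between 0.0641 without knockdown array 1 and 0.108 without control array 2, and it was 0.0844 with quantile normalization and 0.0619 with no filter on low signal.

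Tapasin, encoded by Tapbp, bridges the transporter and the empty class I molecule. Its signal was 2.23, 2.13 and 2.18 on control arrays and 2.23, 2.14 and 2.14 on knockdown arrays. The groups overlapped, and the change was -0.012 (SE 0.051, adjusted p = 0.895). Its sign depended on the scaling, with 0.047 under quantile normalization.

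Psmb9 and Psmb8, which encode subunits of the immunoproteasome, had the largest changes among the genes that rose, and Psmb10, the gene of the remaining subunit, had a small one. Psmb9 (A_51_P369803) encodes the subunit that takes the place of Psmb6. It read -0.28, -0.18 and -0.29 on control arrays and 0.70, 0.54 and 0.60 on knockdown arrays, with processed signal going from 617 to 649 intensity units up to 1045 to 1218. The lowest knockdown array was far above the highest control array, and the change was 0.87 (SE 0.063, adjusted p = 0.00132), a fold of 1.82.

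Psmb8 (A_51_P345367) encodes the subunit that takes the place of Psmb5. It read 2.22, 2.15 and 2.11 on control arrays and 2.98, 2.91 and 2.82 on knockdown arrays. The groups were again far apart, and the change was 0.74 (SE 0.062, adjusted p = 0.00184), a fold of 1.67. Psmb10, whose product takes the place of Psmb7, read 5.72, 5.68 and 5.56 on control arrays. It read 5.81, 5.80 and 5.74 on knockdown arrays, all just above the controls, and the change of 0.13 (SE 0.059, adjusted p = 0.190) did not pass the test. Psmb10 passed the adjusted p after quantile normalization (0.21, adjusted p = 0.0432) and after normexp background correction with the 75th percentile (0.20, adjusted p = 0.0161) or with quantile normalization (0.26, adjusted p = 0.00234), and without control array 3 its change was 0.083.

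The constitutive catalytic subunits did not pass the test, with changes of 0.11 for Psmb5 (adjusted p = 0.136), 0.066 for Psmb6 (adjusted p = 0.361) and -0.024 for Psmb7 (adjusted p = 0.715). Within each array the log2 signal of the immunoproteasome subunit minus that of its counterpart was taken, in which a constant taken off the whole array cancels. Quantile normalization is no such constant, and after normexp with quantile normalization the log2 changes below were 0.65 for Psmb9 over Psmb6 and 0.55 for Psmb8 over Psmb5. The ratio of Psmb9 to Psmb6 rose 1.74-fold, a log2 change of 0.80 (SD 0.071 for control and 0.073 for knockdown arrays, n = 3 each). The ratio of Psmb8 to Psmb5 rose 1.55-fold, a log2 change of 0.64 (SD 0.033 and 0.088). The ratio of Psmb10 to Psmb7 changed 1.11-fold, a log2 change of 0.15 (SD 0.089 and 0.037). In all 3 pairs the groups did not overlap, and an exact two-sided permutation test, which has 20 ways to assign the arrays, gave p = 0.1 for each, also after adjustment over the 3 pairs, the smallest p that 3 arrays against 3 allow.

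**Figure D3:**
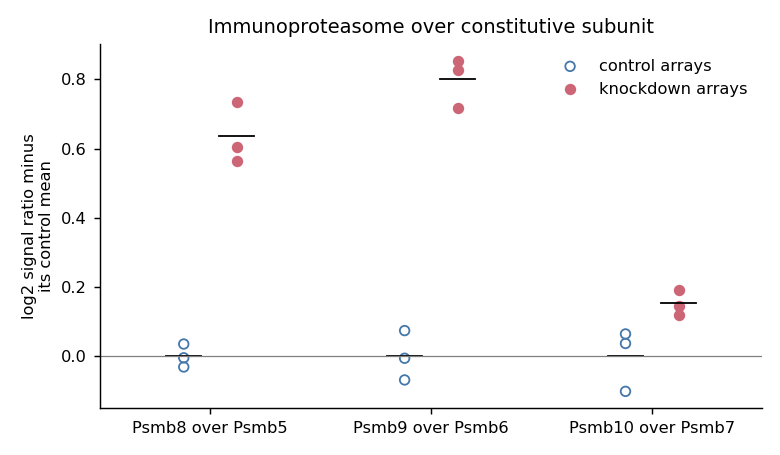
Log2 signal ratio of each immunoproteasome subunit over the constitutive subunit it replaces, minus the mean ratio of the 3 control arrays (vertical axis), for control (open) and knockdown (filled) arrays, with black lines at the group means. The knockdown means are 0.64, 0.80 and 0.15.

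Nlrc5 encodes the class I transactivator. Its brighter probe (A_55_P2016034) read -1.05, -1.06 and -1.05 on control arrays and -0.83, -0.74 and -0.77 on knockdown arrays. The control arrays were nearly equal and all knockdown arrays were above them, with a change of 0.27 (SE 0.043, adjusted p = 0.0114), a fold of 1.21. The dimmer probe (A_66_P113043), between 40 and 52 intensity units, overlapped between the groups and changed by 0.16 (SE 0.10, adjusted p = 0.326). The adjusted p of the brighter probe missed the threshold narrowly without control array 2 (0.0503) or knockdown array 3 (0.0522).

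The arrays were placed in 2 rows of 1 slide. All control arrays and knockdown array 1 lay in row 1, and knockdown arrays 2 and 3 lay in row 2. Within row 1, knockdown array 1 minus the control mean was -0.86 for H2-K1, 0.96 for Psmb9, 0.82 for Psmb8, 0.50 for Tap2, 0.35 for Tap1 and 0.23 for Nlrc5. These kept the direction of the full comparison. With the row as a block, the fitted changes were these same values. Row 2 held knockdown arrays alone, so that fit sets knockdown array 1 against the control arrays. It is no separate check.

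Other genes of the pathway were read from lists. The non-classical class I and class I-like chains, such as the Q, T and M region genes, mostly lay below 0. Of 29 listed, 22 were tested, and 18 of these were well above background on all 6 arrays. Of the 22, 3 were called lower and 0 higher, where 4.99% and 3.91% of all genes were. At an adjusted p below 0.05 and any fold 9 were lower and 1 higher, where 15.7% of all genes were in each direction, and the median change was -0.24. H2-T10, a T region gene, read -1.23, -1.13 and -1.11 on control arrays and -3.33, -3.73 and -3.35 on knockdown arrays, a change of -2.31 (SE 0.12, adjusted p = 0.000626). H2-M10.1, an M region gene, fell by 0.98 (adjusted p = 0.00250), and Procr, which encodes the endothelial protein C receptor, fell by 0.65 (adjusted p = 0.00387). H2-M10.1 was not called after either normexp background correction, and Procr was not called with the slide row as a block.

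Some smaller changes in this list are given with genes named after their values were seen. H2-Q7 read 4.78, 4.72 and 4.70 on control arrays and 4.35, 4.33 and 4.38 on knockdown arrays, a change of -0.38 (adjusted p = 0.00487). H2-T23, which encodes the chain Qa-1, fell by 0.27 (adjusted p = 0.0140). H2-M3, whose window holds the spaced pair of TGACG and ATTGG, changed by -0.22 (adjusted p = 0.0551). Hfe, an iron regulator of class I fold, was the 1 gene of the list that was higher at an adjusted p below 0.05, by 0.23.

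Of 11 peptide trimming and loading genes tested, 1 was called lower and 1 higher, where 4.99% and 3.91% of all genes were. At an adjusted p below 0.05 and any fold 3 were lower and 2 higher, where 15.7% of all genes were in each direction. The changes of 9 genes lay below 0, all 3 knockdown arrays lay below all 3 control arrays for 8 of them, where the share of all genes was 27%, and the median change was -0.12. Erap1, the ER aminopeptidase that trims peptides to class I length, fell by 1.02 (SE 0.053, adjusted p = 0.000614). Tapbpl, the tapasin-related peptide editor, rose by 0.64 (SE 0.089, adjusted p = 0.00754). Erap1 was not called after either normexp correction (its change was then as small as -0.40), and Tapbpl was not called without control array 2. Of the 8 constitutive proteasome and regulator genes 0 were called, and Psme2, a subunit of the PA28 activator named after its value was seen, was the 1 gene past an adjusted p of 0.05, with 0.21 (adjusted p = 0.0364).

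Factors that act on class I promoters moved in both directions. Of 13 tested, 3 were called lower and 1 higher, where 4.99% and 3.91% of all genes were, and 2 of those lower were the targets of the knockdown. The other one was Creb1, whose product binds the X2 box, which fell by 0.82 (SE 0.059, adjusted p = 0.00131). The RFX subunit genes Rfx5, Rfxank and Rfxap, named after their values were seen, changed by 0.32, 0.35 and -0.13, with adjusted p of 0.0566, 0.0277 and 0.163. Irf1, an activator of class I and immunoproteasome genes, read 2.72, 2.65 and 2.64 on control arrays and 2.42, 2.41 and 2.41 on knockdown arrays, a change of -0.25 (adjusted p = 0.0140), also named after its values were seen. Nfkb1 and Irf2 of the same list went the other way, by 0.50 (adjusted p = 0.0105) and 0.35 (adjusted p = 0.0224). At an adjusted p below 0.05 and any fold, 4 of the 13 were lower and 4 higher, where 15.7% of all genes were in each direction.

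Interferon-stimulated genes rose more often than they fell. Of 33 tested, 26 were well above background on all 6 arrays. Of the 33, 14 were called higher and 1 lower, where 3.91% and 4.99% of all genes were, and the median change was 0.73. Isg15, a ubiquitin-like modifier, rose by 1.31 (SE 0.048, adjusted p = 0.000336), Gbp3, a guanylate-binding protein gene, by 1.23 (adjusted p = 0.00177) and Samd9l by 1.34 (adjusted p = 0.0276). Parp14, an ADP-ribosyltransferase gene, and Gbp7 had no control array with a signal well above background. On the scale of the processed signal the fitted fold was 6.21 for Parp14 (adjusted p = 0.000343) and 4.26 for Gbp7 (adjusted p = 0.00183). Ifit2 was well above background on 1 control array and 3 knockdown arrays and rose by 1.73 (adjusted p = 0.0282). The folds of Parp14 and Gbp7 rest on control signals that were not well above background, and they are not lower bounds. Bst2, which encodes tetherin and was named as the 1 gene called lower, fell by 1.12 (adjusted p = 0.000412). Of the 14 genes called higher, 7 kept their call after normexp with quantile normalization, 8 after normexp with the 75th percentile, 8 with the slide row as a block and 11 to 14 without 1 array. The smallest change among the alternatives was 0.78 for Parp14, 0.41 for Gbp7 and 0.33 for Ifit2. Gbp7 was not called after either normexp correction and Gbp3 after one of them, Ifit2 was not called after either normexp correction, with the slide row as a block or when control array 1, control array 2, knockdown array 2 or knockdown array 3 was left out, and Samd9l was not called with either block, without any 1 of the control arrays or without knockdown array 2. This list was chosen with its rise in these arrays already known. Whether the rise of the interferon-stimulated genes had a part in that of Psmb8, Psmb9, Tap1 and Tap2 was not tested.

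**Figure D4:**
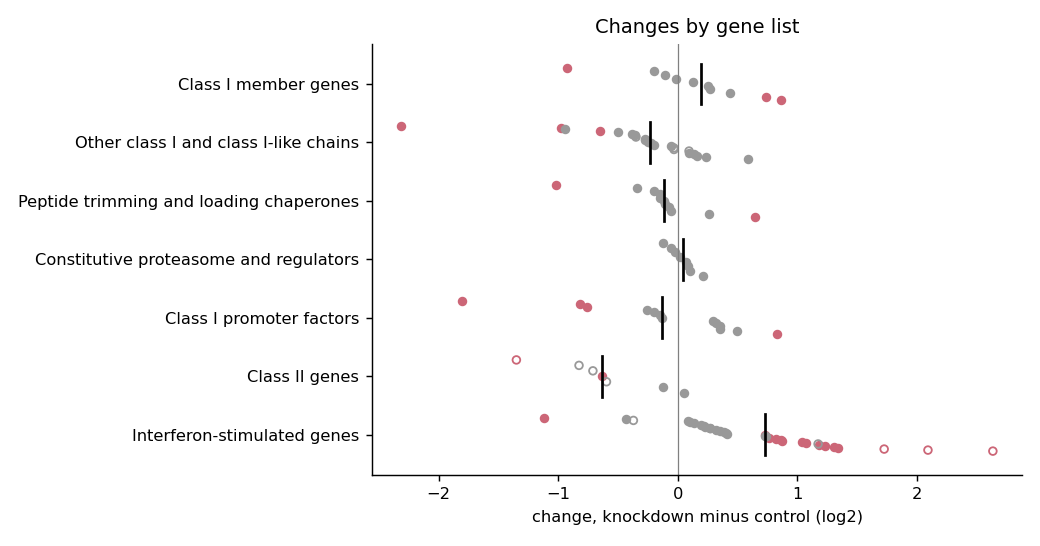
Change of each tested gene (horizontal axis, knockdown minus control, log2) in the 10 class I genes and 6 other lists. Each point is a gene, red where called and grey where not, open where its probe was not well above background on all 6 arrays, and black bars are medians, from -0.64 for class II genes to 0.73 for interferon-stimulated genes.

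Class II genes, which use the same SXY module with the transactivator CIITA, were mostly dim. Of 11 listed, 7 were tested and 3 of these were well above background on all 6 arrays. Cd74, the invariant chain gene, fell by 0.64 (SE 0.055, adjusted p = 0.00194), and its call was lost with the slide row as a block and after normexp with the 75th percentile. H2-Oa fell by 1.35 (adjusted p = 0.00265), with a signal well above background on all 3 control arrays and 1 knockdown array, and was not called after either normexp correction, where its change was as small as -0.31. The other genes well above background on all 6 arrays were H2-Ob and H2-DMa, and neither passed the test. They changed by -0.12 (adjusted p = 0.380) and 0.055 (adjusted p = 0.622). Of the 7 genes, 2 were called lower and 0 higher, where 4.99% and 3.91% of all genes were. The median change of the 7 genes was -0.64, with dim probes included.

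The cell identity markers were checked beside these results. Of 18 neuroblastoma and neuronal markers, 17 were tested and all 17 were well above background on all 6 arrays, and the log2 of their summed level was 8.81 to 8.84 on control arrays and 8.69 to 8.72 on knockdown arrays. The groups did not overlap in this sum. Of the 17, 2 were called lower and 0 higher, where 4.99% and 3.91% of all genes were. At an adjusted p below 0.05 and any fold 6 were lower and 2 higher, where 15.7% of all genes were in each direction. All 3 knockdown arrays lay below all 3 control arrays for 8 and above them for 4, where the shares of all genes were 27% and 27.7%. Mycn, the neuroblastoma oncogene, fell by 0.69 and Th, tyrosine hydroxylase, fell by 0.62, and Mycn was not called with the slide row as a block. Of 10 immune cell markers, 8 were tested, 5 were well above background on all 6 arrays and 0 were called, against the same shares of all genes. The changes of 6 lay below 0 and of 2 above, with a median of -0.34. At an adjusted p below 0.05 and any fold 1 was lower and 0 higher, where 15.7% of all genes were in each direction. Their summed level was 3.39 to 3.60 on control arrays and 3.37 to 3.58 on knockdown arrays. Ptprc, the leukocyte marker CD45, was not called and is the only marker of this list named here. Its signal was -4.79 to -4.58 on control arrays and -5.38 to -5.05 on knockdown arrays. The 7 fibroblast markers summed to between -2.06 and -1.80 on control arrays and between -1.87 and -1.62 on knockdown arrays. Of these 7, 4 were well above background on all 6 arrays and 2 on none. Col1a1 was called lower (-0.77) and Pdgfra higher (1.29), 1 gene in each direction, where 4.99% and 3.91% of all genes were. Col1a1 kept its call in 9 of 19 alternatives and lost it without control array 1, control array 2, knockdown array 1 or knockdown array 2, and Pdgfra lost its call after either normexp correction. The summed immune level overlapped between the groups. The sum is taken on the linear scale, so its brightest members weigh most. Whether immune cells had a part in the changes of the class I genes was not tested.

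The genes whose pattern over the 6 arrays was most like that of 3 class I genes were sought among 13975 genes well above background, by the mean absolute difference of log2 values after each gene's own mean was taken off. For H2-K1 they were Atf2 (0.021), Tomm70a (0.024) and Zfp472 (0.026). For B2m they were Rnf14 (0.0084), Dlg1 (0.011) and Ckap5 (0.013), and for Tap1 they were Ppm1g (0.013), Gnaz (0.014) and Adam19 (0.015). With 2 groups of 3 arrays, such a pattern is mostly the size of the change between the groups.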

How the data were processed

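RNA of N2a cells was measured on 6 single-colour Agilent mouse arrays, 3 control and 3 knockdown, grouped by sample title. Per the submitters' notes the scans went through Agilent Feature Extraction 10.10.1.1. The tables deposited by the authors give each spot's background-corrected processed signal as intensity, with flags. The deposited series matrix holds log2 values. Over 43557 single-spot probes, its differences between arrays matched those computed here to within 0.0075. The authors worked in GeneSpring and left out low signals.

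Control spots and outlier spots were left out, the 75th percentile of each array was subtracted from the log2 intensity, and a probe's spots were averaged. Some array gave no value for 245 of 55681 probes. The 42208 probes that reached the 20th percentile on all 3 arrays of a group entered a two-sided limma test without covariates (lmFit, then eBayes; limma 3.58.1, R 4.3.3). The brightest probe by mean signal stood for a gene. Symbols came from RefSeq, and 20599 tested probes had none. The number of arrays limits the precision. The fit was tested on simulated data.

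The 10 genes and all lists were chosen with earlier results of these data known. Named by rule are the 10 genes, the NF-Y subunits, Psmb5, Psmb6, Psmb7, at most 6 called genes per list by size of change, and the 3 genes most like H2-K1, B2m and Tap1. Named outside this rule are H2-Q7, H2-T23, H2-M3, Hfe, Psme2, the RFX genes, Irf1, Irf2, Nfkb1, Bst2, H2-Ob, H2-DMa and Ptprc. Alternatives were other scalings, normexp background correction with an offset of 50 on the median spot signal (no mean signal was used here), the series matrix, other filters and fold limits, a variance trend, array weights, replicate and slide row blocks, averaged probes and leaving out each array.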

Additional observations from a re-analysis of the deposited data

How the results depend on the processing

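H2-K1 (-0.97 to -0.73), Psmb8 (0.70 to 0.82), Psmb9 (0.78 to 0.96) and Tap2 (0.41 to 0.50) kept their direction and an adjusted p below 0.05 in all 19 alternative fits. Tap1 did so in 10 of 19 and Nlrc5 in 15 of 19, with the direction kept in all. B2m and Psmb10 were past that threshold in 3 of 19 and H2-D1 in 1 of 19. The sign of H2-D1 turned after normexp with quantile normalization (0.011). That of Tapbp turned under quantile normalization (0.047), after normexp with quantile normalization (0.050), with the slide row as a block (0.045) and among the fits without 1 array (-0.040 to 0.013). The cause was not tested.

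Over all genes, 2591 were lower and 2595 higher with no minimum fold, and 286 and 182 with a minimum fold of 2, where none of the 10 class I genes was called in either direction (0 lower and 0 higher). With no minimum fold, 5 of the 10 were higher. Normexp lowered the genes called higher to 278 with the 75th percentile and 286 with quantile normalization. Without 1 array the counts were 751 to 831 lower and 551 to 612 higher, and the class I genes called stayed at 1 and 2.

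Arrays of the same replicate number did not deviate together (correlations of 0.016, 0.066 and 0.0023), so the numbers were not taken to pair arrays. With the replicate block, 764 genes were called lower and 518 higher, 1 and 2 of them class I genes, while Tap1 (adjusted p = 0.0910) and Nlrc5 (adjusted p = 0.0582) missed the threshold. Dim probes, such as the dimmer one of Nlrc5, limit what can be read from small changes.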
